A study of Mus musculus with 15 samples.

Results

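The solute carriers are the largest group of membrane transporters, and these data hold 307 genes whose symbol starts with Slc and a number, represented by 526 of 36701 non-control probe sets. Every probe set annotated to 1 such gene was taken, apart from those of Slc2a1, Slc2a3 and Slc11a2, which were left out. The genes belong to 51 numbered families, which were placed in 11 classes by the substrate for which each family is known. The rule works on names: 5 of its genes, Slc9a3r1, Slc9a3r2, Slc7a6os, Slc4a1ap and Slc2a4rg-ps, are named after a carrier and are not carriers themselves.

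RNA came from Ba/F3-beta cells, a mouse pro-B cell line that depends on interleukin-3 (IL-3) for growth and survival. Cells had received either a control siRNA called scramble I or siRNAs against Stat5A and Stat5B, the transcription factors that the IL-3 receptor activates through JAK kinases. Control siRNA cells were left unstimulated or given IL-3 for 30 min or for 2 h, and Stat5 siRNA cells were given IL-3 for 30 min or for 2 h, so that every culture had been transfected. Stat5 siRNA cells without IL-3 were not analysed here. Each of these 5 conditions was hybridised once to each of 3 Affymetrix designs, U74A, U74B and U74C, which carry different probe sets, so that no measurement had a replicate and none of the differences could be tested. In RNA from a whole culture, fewer cells that express a gene and less of its RNA per cell cannot be told apart.

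Solute carriers move nutrients, ions, metals and metabolites across the plasma membrane and the membranes of organelles, mostly by coupling their substrate to a gradient or by exchanging one substrate for another. In blood cells, growth factors are known to raise the uptake of amino acids, glucose and phosphate, and amino acids that reach the lysosome permit signalling through mTORC1. The Slc25 family sits in the inner mitochondrial membrane, where it carries nucleotides, phosphate, cofactors and amino acids between the cytosol and the matrix. Slc30 proteins export zinc from the cytosol and Slc39 proteins import it.

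The signal of a probe set is a MAS5 intensity on a linear scale, brought to 1 level across the 15 arrays. A signal of 119.866 served as the floor, the level that 14553 probe sets reached on their highest array, which is the number that passed the study's own filters. Of the solute carrier probe sets, 198 (37.6%) reached the floor on at least 1 array, against 39.7% of all probe sets. They represented 154 genes, and the other 153 genes had no signal at the floor in any condition. Below, 5 signals in a row always run from unstimulated cells through control siRNA cells at 30 min and at 2 h of IL-3 to Stat5 siRNA cells at 30 min and at 2 h of IL-3. Ratios are log2 values in which a signal under the floor was raised to it, so that a ratio with such a signal is a lower bound, and a gene measured by several probe sets has their median. A ratio past 2-fold was called. Probe sets of 1 gene, which should give 1 ratio, differed with an SD per single ratio of 0.25 for IL-3 at 30 min, 0.32 for IL-3 at 2 h, 0.23 for Stat5 siRNA at 30 min and 0.26 for Stat5 siRNA at 2 h. Solute carrier probe sets alone gave 0.40 for IL-3 at 2 h, over 19 pairs. For IL-3 at 30 min they gave 0.23, and for Stat5 siRNA 0.24 at 30 min and 0.29 at 2 h. Of the designs, U74C was the least precise at 0.41 for IL-3 at 2 h, and these values cover the probe sets and not the cultures.

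The targeted genes were lower on the Stat5 siRNA arrays. A Stat5a probe set stood at 548 in control cells and 277 in Stat5 siRNA cells at 30 min, or 50.6% of control, and 53.6% at 2 h. Another was at 47.6% and 38.1%, and both are of a kind that can hybridise to other transcripts. For Stat5b the signals at 30 min were 499 and 166, or 33.2% of control. At 2 h they were 177 and 126, or 71.3%, since the control signal was itself lower at 2 h. A U74A probe set of Stat5b, under the floor in every condition, was at 42.1% at 30 min and 57.7% at 2 h. All 3 genes of the IL-3 receptor listed, Il3ra, Csf2rb and Csf2rb2, reached the floor, whereas only 2 of 11 pro-B and B lineage markers on the arrays, Cd79b and Ptprc, did so, and Pax5, Ebf1, Vpreb1 and Rag1 did not. All 4 erythroid markers on the arrays reached it, among them Hba-a1, with signals of 467, 471, 447, 1103 and 1172. The summed erythroid signal was 1629 and 1075 in control cells at 30 min and 2 h, and 2527 and 1905 in Stat5 siRNA cells. Of the erythroid probe sets, that of Hba-a1 differed most between the siRNA arms. Epor was lower with Stat5 siRNA at 30 min (161 in control cells and 147), as was a Gata1 probe set at 2 h (122 and 101). The other erythroid signals were higher with Stat5 siRNA. T cell markers reached the floor for 0 of 4 genes, myeloid markers for 1 of 6, fibroblast markers for 1 of 4 and epithelial markers for 2 of 4. The part of these markers in the solute carrier ratios was not tested.

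Few solute carrier genes differed past 2-fold, and those called with IL-3 were called at 2 h. After 30 min of IL-3, 0 of 140 measured genes were 2-fold higher and 0 were 2-fold lower, against 0.711% and 0.343% of all measured genes. After 2 h, 5 of 140 (3.57%) were higher, against 2.45% of all genes, and 3 of 140 (2.14%) were lower, against 1.63%. These shares lie near those of the array as a whole. With the floor doubled, Slc25a33 alone was called higher and Slc25a30 and Slc37a3 lower. The median solute carrier ratio was -0.02 at 30 min and -0.01 at 2 h, beside -0.01 and -0.03 over all genes. Both time points were set against the same unstimulated array. At 1.5-fold, 2 solute carrier genes were higher and 2 lower at 30 min, against 2.97% and 2.37% of all genes. At 2 h, 13 (9.29%) were higher and 14 (10%) lower, against 7.92% and 8.28%.

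**Figure D1:**
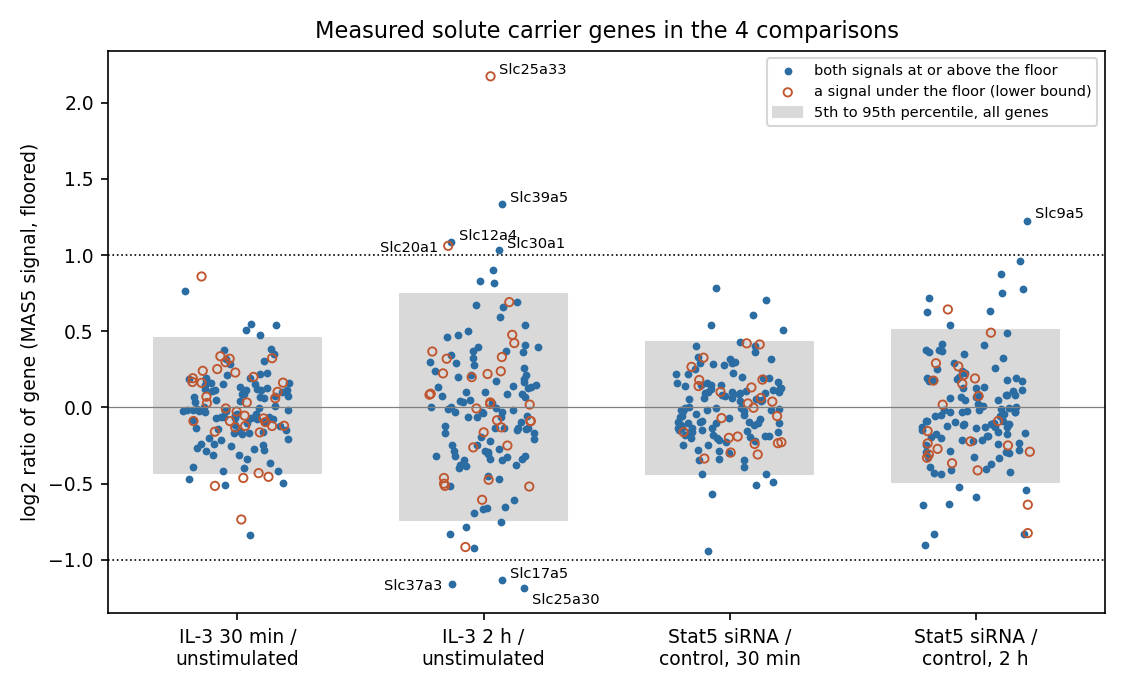
Log2 ratio of each measured solute carrier gene in the 4 comparisons, with 1 point per gene, hollow points for lower bounds, a grey box from the 5th to the 95th percentile of all genes and dotted lines at 2-fold; genes past 2-fold carry their name. The named points lie in the column for IL-3 at 2 h, with 5 above and 3 below the lines, apart from Slc9a5 with Stat5 siRNA at 2 h.

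The reference promoters of 3 of the 8 genes called with IL-3 at 2 h held the E-box CACGTG, the site that MYC and related factors bind, and they are shown because this was the only one of 4 motifs searched that any called gene held. Each is the 250 bases before a transcription start in RefSeq on GRCm38.p6, written 5′ to 3′ on the strand of the gene, with CACGTG in capitals; it reads the same on both strands.
Slc25a33, chr4:149774268-149774517, minus strand: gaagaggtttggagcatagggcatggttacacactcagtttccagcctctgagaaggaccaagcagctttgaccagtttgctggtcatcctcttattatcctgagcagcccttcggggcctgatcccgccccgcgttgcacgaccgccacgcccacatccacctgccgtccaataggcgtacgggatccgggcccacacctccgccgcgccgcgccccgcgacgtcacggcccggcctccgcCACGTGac
Slc20a1, chr2:129198523-129198772, plus strand: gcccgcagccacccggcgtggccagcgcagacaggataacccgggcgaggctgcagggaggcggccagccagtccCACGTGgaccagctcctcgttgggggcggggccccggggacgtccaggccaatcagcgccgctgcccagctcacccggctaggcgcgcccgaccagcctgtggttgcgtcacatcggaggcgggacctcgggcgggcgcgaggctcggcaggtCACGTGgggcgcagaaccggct
Slc37a3, chr6:39377708-39377957, minus strand: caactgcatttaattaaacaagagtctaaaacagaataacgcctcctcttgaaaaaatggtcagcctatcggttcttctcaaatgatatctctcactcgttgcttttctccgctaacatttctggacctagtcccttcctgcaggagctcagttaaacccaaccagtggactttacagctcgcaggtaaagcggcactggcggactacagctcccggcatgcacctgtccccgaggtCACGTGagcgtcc

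The first base of the motif lay 8 bases before the start for Slc25a33, 22 and 175 bases before it for Slc20a1, and 13 bases before it for Slc37a3. The first pair of genes was higher and Slc37a3 lower at 2 h, so the motif did not go with 1 direction. A second window of Slc20a1, and one of Slc37a3, from other annotated starts held no match. CACGTG occurred in 37 of 242 solute carrier genes with a promoter in the table (15.3%), in 15 of 119 of those that reached the floor (12.6%), and in 1331 of 17491 protein-coding genes (7.61%). Over all 27025 genes of the table the share was 6.86%. The STAT5 motif TTCNNNGAA, searched on both strands, was in 18 solute carrier genes (7.44%), in 8.13% of all genes, and in 0 of the 8 called genes. TGATGCAA, a site for ATF4 with C/EBP, was in 4 of 242 (1.65%), against 0.918% of all genes. GTAAACA, a FOXO site, was in 6 of 242 (2.48%), against 3.54%. Neither was in a called gene, which says only that these letters are not in the windows searched.

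Among mitochondrial carriers, 29 of 40 genes were measured at 2 h, 1 was 2-fold higher, 1 was 2-fold lower, and the median ratio was -0.03. The higher one, Slc25a33, had the largest ratio of any solute carrier; it carries pyrimidine nucleotides into mitochondria and is known to respond to insulin and insulin-like growth factor. The signals of its U74B probe set were 111, 149.9, 541, 181 and 493. Both 2 h arrays were far above the other 3, with and without Stat5 siRNA. With IL-3 at 2 h the signal was at least 4.51-fold higher than in unstimulated cells, a log2 ratio of 2.17. A U74C probe set of the same gene, of a kind that can hybridise to other transcripts, went the other way at 209, 107, 85, 198 and 80.3, and was not used for the gene.

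Slc25a30, a mitochondrial carrier first described in kidney, was the other called member of this class. Its signals were 483, 457, 213, 533 and 275, low on both 2 h arrays and high on the other 3. It was 2.27-fold lower after 2 h of IL-3. From 30 min to 2 h its log2 ratio was -1.10 in control cells and -0.95 in Stat5 siRNA cells. Slc25a44, which imports branched-chain amino acids into mitochondria, stood at 188, 188, 298, 305 and 308. Only the unstimulated and the control 30 min arrays were low, so its ratio was 0.66 with IL-3 at 2 h and 0.70 with Stat5 siRNA at 30 min. Slc25a17, a member of this family that sits in peroxisomes and carries coenzyme A and FAD, stood at 335, 488, 433, 437 and 402 and had one of the larger ratios at 30 min, 0.54. The probe set of Slc25a29, a carrier of basic amino acids, also of the kind that can cross-hybridise, was at 17.7, 21.6, 149.6, 23.2 and 169, over the floor only on the 2 h arrays. Because the earlier signals were under the floor, its bound at 2 h was only 0.32. The adenine nucleotide translocase Slc25a4 stood at 1481, 1488, 1345, 1281 and 1228 on U74A, a ratio of -0.14 at 2 h, while a U74B probe set of the kind that can cross-hybridise gave -0.98.

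The metal carriers had 18 of 28 genes measured at 2 h, 2 called higher, 0 called lower and a median of 0.11. Both called genes handle zinc. Slc39a5, a zinc importer, stood at 151, 256, 381, 233 and 245. The control signal was higher at 30 min and higher again at 2 h, with log2 ratios of 0.77 and 1.34 against unstimulated cells, the latter a 2.53-fold difference. In Stat5 siRNA cells the 2 h signal was near the 30 min signal, and the ratio of Stat5 siRNA to control at 2 h was -0.63, which did not reach 2-fold. Slc30a1, the zinc exporter of the plasma membrane, stood at 124, 80.7, 255, 131 and 267. Its 2 h signals were about alike in both siRNA arms and above the other 3, and the ratio with IL-3 at 2 h was 1.03, or 2.05-fold, a call that was lost when the arrays were scaled to their medians.

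Probe sets of Slc39a14, an importer of zinc and iron, disagreed past 2-fold at 2 h. One stood at 118, 108, 303, 116 and 214 and gave a bound of 1.34, and the other at 49.6, 85.3, 124, 91.5 and 101 and gave 0.04, just over the floor on 1 array, so the gene was not called. Slc39a7, the zinc channel of the endoplasmic reticulum, had a ratio of 0.59 at 2 h, and Slc39a11, another zinc importer, had -0.70. Slc39a13, a zinc carrier of the secretory pathway, stood at 199.6, 114, 159.6, 105 and 80.4 and had among the lowest ratios at 30 min, -0.74. Zinc importers were thus found both above and below their unstimulated signal.

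Slc39a1, a zinc importer of the plasma membrane, had the lowest ratio of any solute carrier with Stat5 siRNA at 30 min. Its signals were 261, 253, 237, 132 and 194, and the Stat5 siRNA array at 30 min was below the other 4. The ratio was -0.94, short of 2-fold, and it passed 2-fold when the arrays were scaled to their medians. Slc31a2, a copper carrier, stood at 165, 157, 212, 134 and 105 and was lowest on the Stat5 siRNA array at 2 h, where its bound was -0.83.

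Carriers of inorganic ions had 13 of 44 genes measured at 2 h, with 2 called higher, 0 called lower and a median of 0.02. Slc20a1, which imports phosphate with sodium, stood at 75.1, 143, 249.97, 133 and 273. It was under the floor only in unstimulated cells, and after 2 h of IL-3 it was at least 2.09-fold higher, with the 2 h signals alike in the siRNA arms. Slc12a4, a potassium and chloride exporter that acts in cell volume control, stood at 138, 196, 292, 175 and 226 on a probe set of the kind that can cross-hybridise. Its ratio at 2 h was 1.08, and its other probe set was under the floor. With the floor at 0.5 times its value, that other probe set was used instead and the gene's ratio was 0.21. Slc12a3, the thiazide-sensitive sodium and chloride carrier, stood at 226, 176, 74.6, 256 and 187. It was under the floor only in control cells at 2 h, where its bound was -0.92, and Stat5 siRNA cells had the higher signal at both times, with ratios of 0.54 and 0.64.

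Slc9a5, a sodium and proton exchanger known mainly from neurons, was the 1 solute carrier gene called in a Stat5 siRNA comparison. Its signals were 109, 217, 121, 192 and 284. In control cells it was high at 30 min and close to the floor at 2 h, and in Stat5 siRNA cells it was high at both times. The Stat5 siRNA signal at 2 h was 2.34-fold higher than control, a call lost with the floor doubled. This probe set is on U74C, where the SD of a single ratio for Stat5 siRNA at 2 h was 0.30.

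**Figure D2:**
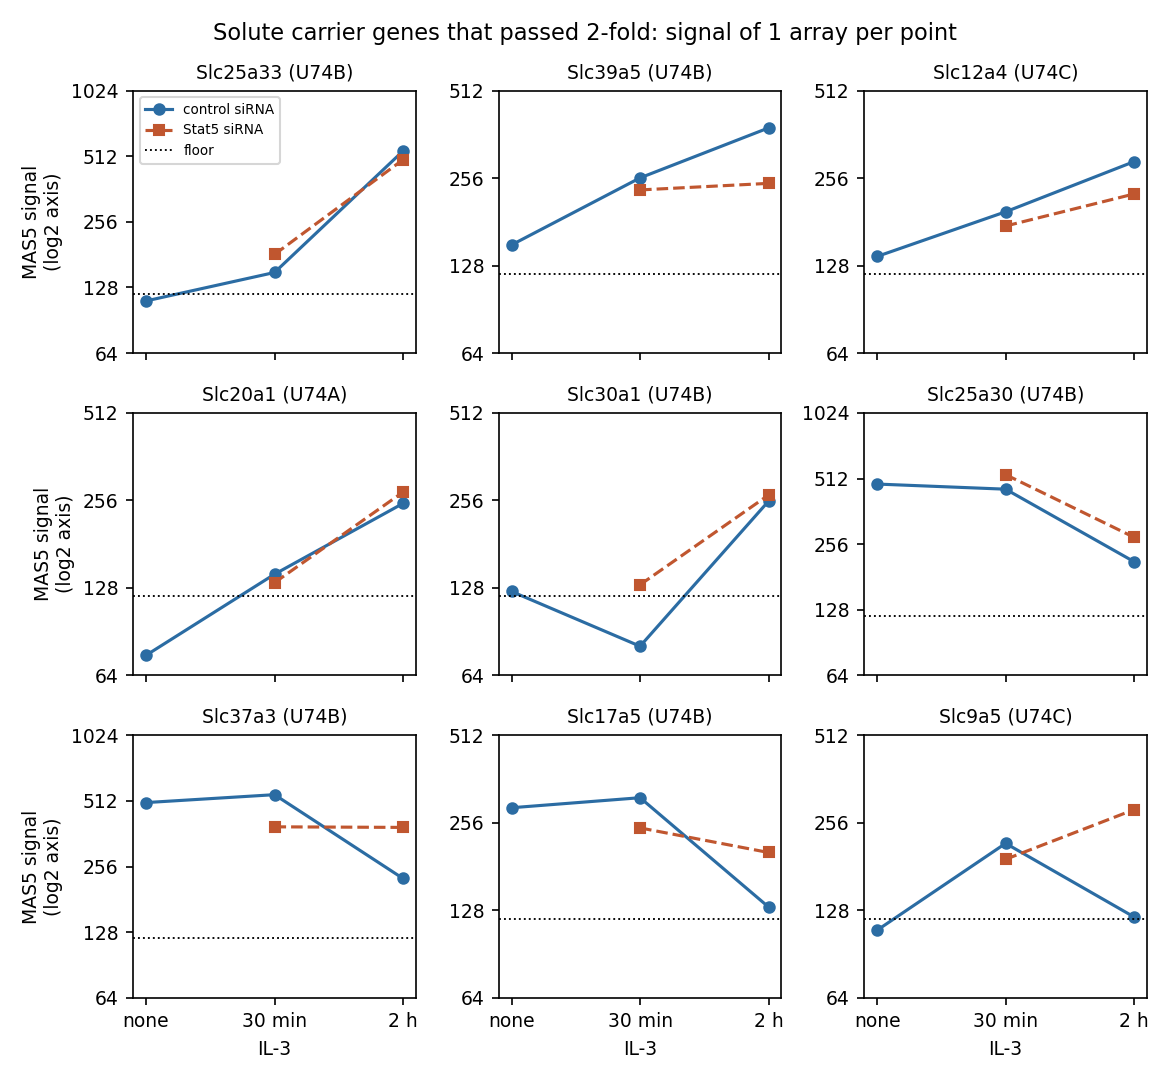
Signals of the 9 called genes in the 5 conditions on a log2 axis, with 1 panel per gene, 1 point per array, solid lines for control siRNA, dashed lines for Stat5 siRNA and the floor as a dotted line. Slc25a33, Slc20a1 and Slc30a1 are high on both 2 h arrays, while Slc37a3 and Slc17a5 are lowest in control cells at 2 h.

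Sugar and sugar phosphate carriers had 12 of 27 genes measured at 2 h, 0 called higher, 1 called lower and a median of -0.25. The called gene was Slc37a3, a member of the sugar phosphate exchanger family that acts at the lysosome. Its signals were 503, 547, 226, 389 and 387. Control cells at 2 h were the lowest of the 5, 2.23-fold below unstimulated cells, whereas the Stat5 siRNA signals at 30 min and 2 h were alike. The ratio of Stat5 siRNA to control was -0.49 at 30 min and 0.78 at 2 h. Slc37a1, of the same family, stood at 219, 158, 175, 168 and 322 and was highest on the Stat5 siRNA array at 2 h, with a ratio to control of 0.88 that was 0.36 with the floor at 0.5 times its value. Slc5a6, which takes up biotin and pantothenate and is in this class only by its family, stood at 201, 262, 353, 244 and 359. The 2 h signals were alike in the siRNA arms, and the ratio with IL-3 at 2 h was 0.82. Slc5a10, a sugar carrier known from kidney, had a ratio of -0.51 with Stat5 siRNA at 30 min, from signals of 239.9 and 168. Measured probe sets of Slc45a4 gave bounds or ratios of 0.57, -0.59 and -0.52 at 2 h, so that its direction rested on the probe set.

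The class of vesicular carriers and other families had the lowest median at 2 h, -0.38 over 9 of 16 genes, of which 7 were below 0 and 1 was called lower. Slc17a5, sialin, which exports sialic acid from lysosomes, stood at 288, 312, 131, 246 and 202. As with Slc37a3, the lowest signal was that of control cells at 2 h, 2.20-fold below unstimulated cells, and the Stat5 siRNA signal at 2 h lay above it. The ratio of Stat5 siRNA to control was -0.35 at 30 min and 0.62 at 2 h. Slc17a3, an anion and urate carrier, stood at 263, 222, 139, 214 and 137 on a probe set of the kind that can cross-hybridise. It was low on both 2 h arrays, and its ratio at 2 h was -0.92. Slc18a1, a vesicular monoamine carrier, stood at 171, 81.9, 46, 159.6 and 144, over the floor in unstimulated cells and in both Stat5 siRNA conditions and under it in control cells with IL-3, with a bound of -0.52.

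**Figure D3:**
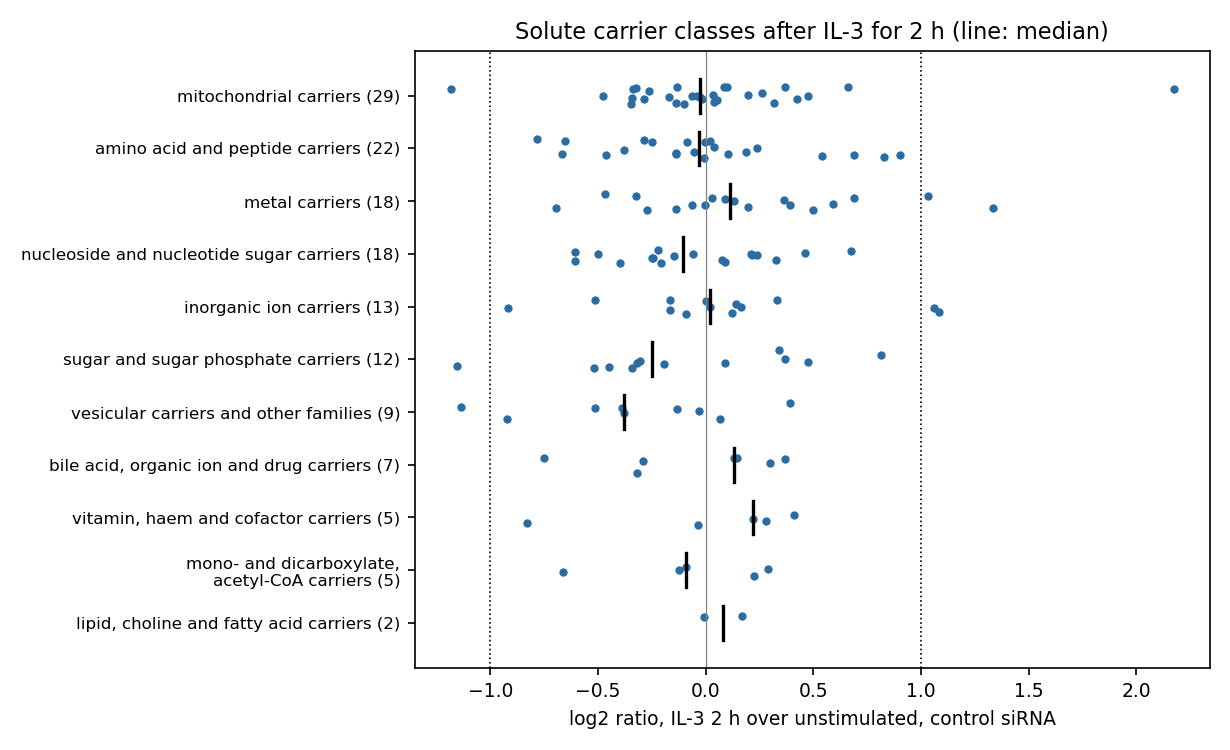
Log2 ratio with IL-3 at 2 h for the measured solute carrier genes of each class, with 1 point per gene, a bar at the class median and dotted lines at 2-fold. Class medians run from -0.38 for vesicular carriers and other families to 0.22 for vitamin, haem and cofactor carriers, and most points of every class lie inside the lines.

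No amino acid or peptide carrier was called in any of the 4 comparisons. Between 0.308% and 2.45% of all genes were called in a direction, so counts of 0 in a class this small say little. At 2 h of IL-3, 22 of 58 genes were measured, 9 were above 0 and 13 below, and the median was -0.03. At 1.5-fold, 3 were higher and 3 lower. Slc1a5, the glutamine carrier ASCT2, was the highest at 0.90. It was measured by a pair of U74C probe sets of the kind that can cross-hybridise, at 353, 312, 601, 420.3 and 544 and at 4163, 4281, 8530.3, 4801 and 7557. Both were high at 2 h in both siRNA arms, with ratios of 0.77 and 1.04 in control cells, and with the arrays scaled to their medians or with the brighter probe set alone the gene passed 2-fold. Slc6a9, the glycine carrier GlyT1, stood at 130.4, 112, 232, 144 and 215, again high on both 2 h arrays, with a ratio of 0.83. Slc7a1, the arginine and lysine carrier CAT1, stood at 259, 234, 417, 294 and 685. Its highest signal was that of Stat5 siRNA cells at 2 h, and the ratio of Stat5 siRNA to control there was 0.72. Slc1a4, the alanine, serine and cysteine carrier ASCT1, stood at 153, 171, 181, 221 and 305, and likewise had its highest signal there, at a ratio of 0.75.

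Slc3a2 encodes the CD98 heavy chain, which brings the light chains of several amino acid exchangers to the cell surface. Its U74A signals were 1370.2, 961, 871, 1653 and 1347, lower in control cells with IL-3 than without, and higher with Stat5 siRNA at both times. The ratios were -0.51 and -0.65 with IL-3, and 0.78 and 0.63 with Stat5 siRNA, the former the highest ratio of any solute carrier at 30 min. The IL-3 and siRNA ratios of a time share the control IL-3 array. A second probe set of the gene was under the floor, and with the floor at 0.5 times its value the gene's ratio with Stat5 siRNA at 2 h was 0.05. Its partner Slc7a5, the large neutral amino acid carrier LAT1, stood at 760.4, 638, 692, 695 and 865, within 0.32 of control in either siRNA comparison. Another partner, the cystine carrier Slc7a11, was under the floor in all 5 conditions. Slc7a5 differed in the same direction as the heavy chain with IL-3 and with Stat5 siRNA at both times, by smaller ratios.

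Slc6a6, the taurine carrier, had the lowest ratio of any solute carrier with Stat5 siRNA at 2 h. Its signals were 295, 319, 337, 236 and 180.4, with both Stat5 siRNA arrays below the 3 control arrays and ratios of -0.43 and -0.90. Slc43a2, the neutral amino acid carrier LAT4, stood at 402, 431, 233, 378 and 197 and at 319, 353, 182, 297 and 147 on the pair of U74B probe sets that were low at 2 h in both siRNA arms. Another gave 0.29, and the median was -0.78. Slc7a14, a lysosomal carrier of basic amino acids, stood at 279, 157, 214, 239 and 137 on U74C. Its ratio to control was 0.61 at 30 min and -0.64 at 2 h, without an order that time or siRNA alone gave. Slc7a3, the cationic carrier CAT3, stood at 403, 413, 254, 279 and 238 on a probe set of the kind that can cross-hybridise, lower with Stat5 siRNA at 30 min and in both arms at 2 h.

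The glutamine carrier Slc38a2, which is known to adapt to amino acid supply, was measured by 4 probe sets with ratios of 0.09, -0.20, -0.52 and 0.41 at 2 h, which did not share a sign. With Stat5 siRNA at 30 min the same probe sets gave 0.02, 0.48, 0.16 and 0.50. Slc38a9, the lysosomal arginine sensor upstream of mTORC1, gave -0.52 and 0.60 from 2 probe sets with Stat5 siRNA at 2 h, so that no direction could be given.

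**Figure D4:**
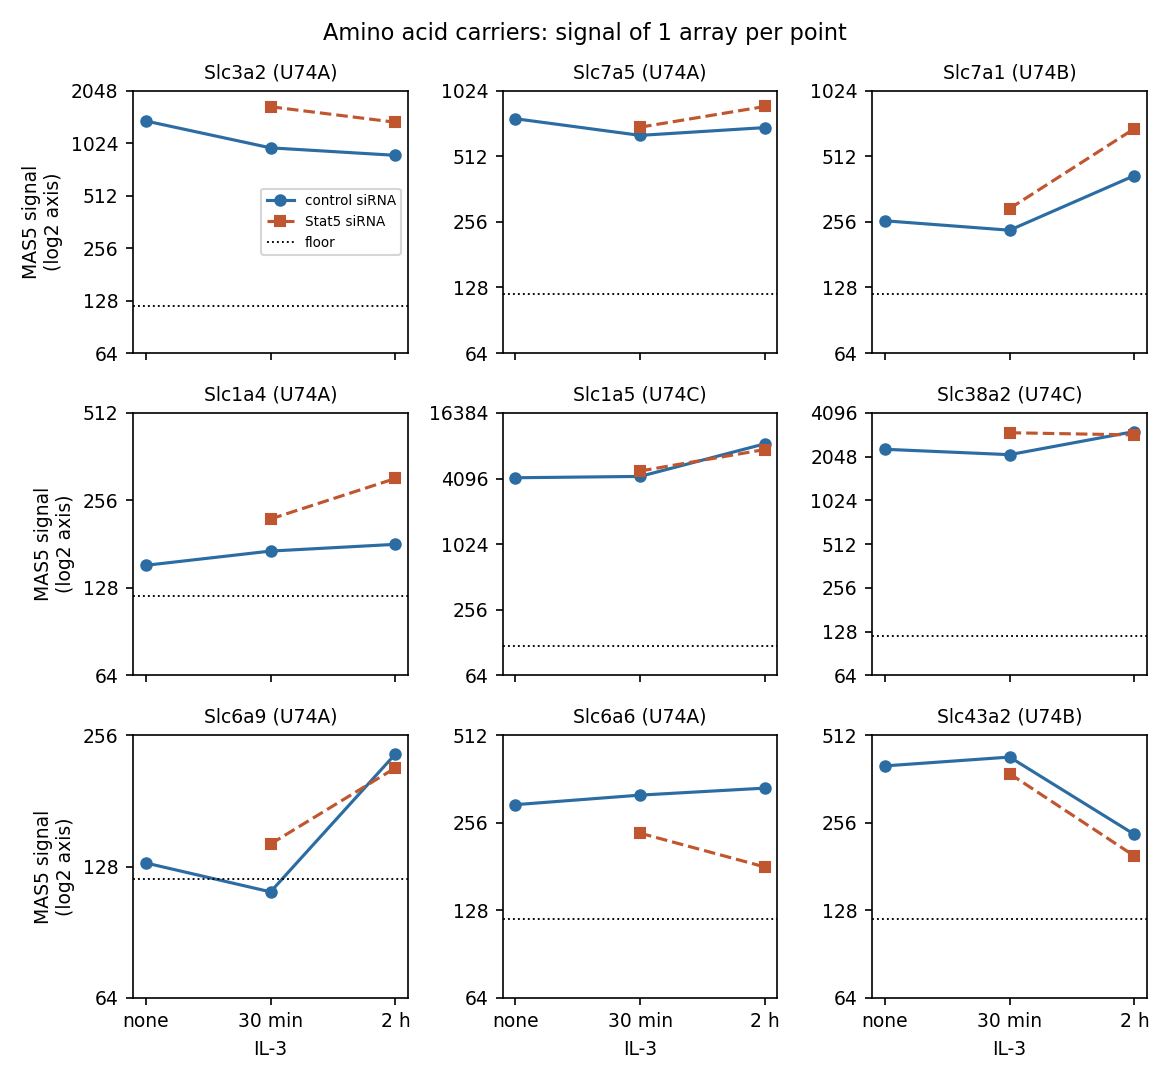
Signals of 9 amino acid carrier probe sets in the 5 conditions on a log2 axis, with 1 point per array, solid lines for control siRNA, dashed lines for Stat5 siRNA and the floor as a dotted line. Slc1a5 and Slc6a9 are higher on the 2 h arrays of both siRNA arms, Slc7a1 and Slc1a4 peak in Stat5 siRNA cells at 2 h, and Slc6a6 is lowest there.

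The remaining classes had no called gene with IL-3, which says little in classes this small. Nucleoside and nucleotide sugar carriers had 18 of 31 genes measured at 2 h and a median of -0.10. Slc28a1, which imports pyrimidine nucleosides with sodium, stood at 225, 256, 147, 232 and 287 and was lowest in control cells at 2 h, with a ratio of Stat5 siRNA to control of 0.96. Slc35d1, which carries UDP sugars into the endoplasmic reticulum, stood at 178, 259, 246, 198 and 138, and Slc35f6 at 139, 193, 222, 165 and 125. In both, control cells with IL-3 were above unstimulated cells and Stat5 siRNA cells at 2 h were below them, with a ratio to control of -0.83 in each. With the floor at 0.5 times its value those ratios were -0.29 and -0.36.

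Of the vitamin and haem carriers, 5 of 11 were measured at 2 h, with a median of 0.22. Slc19a2, a thiamine carrier, stood at 1846, 1819, 2449, 1791 and 2394, high at 2 h in both arms at a ratio of 0.41, and Slc48a1, which moves haem out of endosomes and lysosomes, stood at 385, 332, 217, 405 and 289, low at 2 h at -0.83. Bile acid and organic ion carriers had 7 of 26 measured and a median of 0.13, from -0.75 for Slc10a7 to 0.37 for Slc10a3. In this class Slc22a17, a receptor for lipocalin-2, had the largest ratio with Stat5 siRNA, 0.51 at 30 min. Carboxylate carriers had 5 of 17 measured and a median of -0.09, from -0.66 for Slc16a11, an orphan of the monocarboxylate family, to 0.29 for Slc13a2, which takes up dicarboxylates and citrate. Lipid carriers had 2 of 9 measured, with a median of 0.08.

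With Stat5 siRNA at 30 min, 0 of 138 measured solute carrier genes were 2-fold higher and 0 were 2-fold lower, against 0.308% and 0.382% of all genes. At 2 h, 1 of 139 (0.719%), Slc9a5, was higher and 0 were lower, against 0.504% and 0.43%. The medians were -0.01 and -0.05, beside 0.00 and 0.00 over all genes. At 1.5-fold the siRNA comparison at 2 h held 9 higher (6.47%) and 8 lower (5.76%), against 3.37% and 3.15%, and at 30 min 3 higher and 1 lower, against 2.07% and 2.33%. Of the 5 solute carrier genes 2-fold higher with IL-3 at 2 h, 0 were 2-fold lower with Stat5 siRNA at 2 h. Over all genes 0.43% were lower in that comparison, so a count of 0 among 5 says little. The share among all genes higher with IL-3 was not computed. In the 5 the ratio of Stat5 siRNA to control ran from -0.63 for Slc39a5 to 0.13 for Slc20a1. The IL-3 and siRNA ratios at a time share the control IL-3 array, so that an error of that array moves them in opposite directions.

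The siRNA ratios at 30 min and at 2 h share no array. Over the 125 solute carrier genes measured at both times they had a Pearson correlation of 0.197 and a Spearman correlation of 0.213, and 73 (58.4%) had the same sign. Over 7699 genes of all kinds the correlations were 0.204 and 0.164 and the share 55.9%. Genes are not independent replicates, and these values describe only how far the arrays followed each other.

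The step from 30 min to 2 h of IL-3 can also be read within each siRNA arm, and the 2 arms share no array. This comparison was added after the values had been seen. Between probe sets of 1 gene the SD per single ratio was 0.29 in either arm over all genes. Among solute carriers it was 0.47 in control cells, over 20 pairs, and 0.18 in Stat5 siRNA cells, over 16 pairs. In control cells 2 of 142 measured solute carrier genes (1.41%), Slc25a33 and Slc30a1, were 2-fold higher at 2 h than at 30 min, against 1.89% of all genes, and 3 (2.11%), Slc37a3, Slc17a5 and Slc25a30, were lower, against 1.65%. In Stat5 siRNA cells 4 of 142 (2.82%) were higher, against 1.64%, and 0 were lower, against 1.19%. The 4 were Slc25a33, Slc7a1, Slc20a1 and Slc30a1, at 1.44, 1.22, 1.03 and 1.03. In control cells the same 4 stood at 1.85, 0.83, 0.81 and 1.09, the last a bound. At 1.5-fold, 9 genes were higher and 12 lower in control cells, against 6.74% and 7.94% of all genes, and 9 and 11 in Stat5 siRNA cells, against 6.32% in either direction. These carriers of pyrimidine nucleotides, basic amino acids, phosphate and zinc, picked by their call in Stat5 siRNA cells, were thus higher at 2 h than at 30 min in both arms. The arms are separate sets of arrays. Genes of all kinds measured in both arms were picked the other way, by their call in control cells. Of 155 called higher there, 145 were also above 0 in Stat5 siRNA cells, so a shared direction was common among called genes. The share for genes of all kinds picked in Stat5 siRNA cells was not computed.

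Of the 3 genes lower in control cells, Slc25a30 was at -0.95 in Stat5 siRNA cells, beside -1.10 in control cells. Slc17a5 was at -0.28 beside -1.25, and Slc37a3 at -0.01 beside -1.28. Slc25a30 was therefore lower in both arms. Slc37a3 and Slc17a5 were lowest in control cells at 2 h, and the cause of the difference between the arms was not tested. None of the 3 was called lower in Stat5 siRNA cells, and all 3 were below 0 there. Among genes of all kinds measured in both arms, 134 were called lower in control cells. Of these, 49 were also called lower in Stat5 siRNA cells and 124 were below 0. All calls in control cells, higher and lower, came from the U74B design, and so from the same array at 2 h. That design held 77 of the measured solute carrier probe sets, beside 50 on U74A and 49 on U74C. Across 132 solute carrier genes measured in both arms the Pearson correlation was 0.604 and the Spearman correlation 0.537, and 93 (70.5%) had the same sign. Across 7924 genes of all kinds the values were 0.614, 0.529 and 67.9%, so the solute carriers followed the 2 arms about as all genes did.

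**Figure D5:**
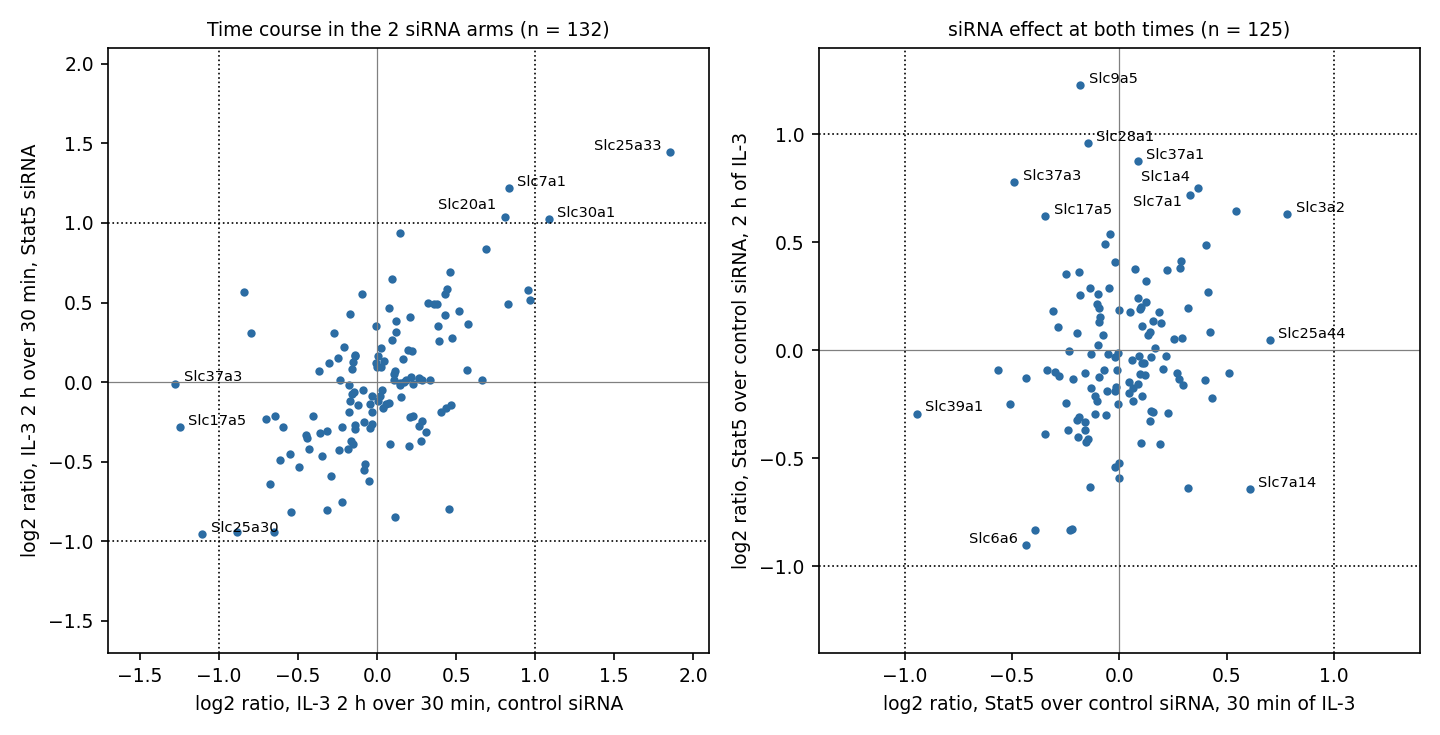
Log2 ratios of solute carrier genes in pairs of comparisons that share no array, with 1 point per gene and dotted lines at 2-fold; one panel sets the step from 30 min to 2 h in Stat5 siRNA cells against control cells, the other the siRNA ratio at 2 h against that at 30 min. Slc25a33 and Slc30a1 lie past 2-fold in both arms, and the siRNA ratios scatter around 0 with a Pearson correlation of 0.197.

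Other transport genes and the machinery that senses amino acids are given for comparison. Of 43 genes of ABC transporters, which pump substrates with ATP, 21 were measured with IL-3 at 2 h, with a median of -0.13. Of 35 ion-pumping ATPase genes 20 were measured, with a median of -0.01. Of 11 Slco genes, organic anion carriers outside the Slc naming, 3 were measured, with a median of 0.15, and of 5 mitochondrial carriers without an Slc name also 3, with a median of -0.10. Of 25 genes of the lysosomal machinery that reports amino acids to mTORC1, 22 were measured, with a median of -0.04. In each of these 5 lists 0 genes were called in the 4 comparisons with unstimulated or control siRNA cells, where between 0.308% and 2.45% of all genes were called in a direction, so that counts of 0 in lists this short say little. For the step from 30 min to 2 h in Stat5 siRNA cells 2 of their genes were called higher: Slco6b1 at 1.02, on a probe set that can cross-hybridise, beside -0.13 in control cells, and the ATPase gene Atp13a3 at 1.09, beside 0.30.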

How the data were processed

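The deposited values are probe set intensities on a linear scale, computed by the authors with MAS5 per the submitters' processing notes, and analysed by them in Genespring per the series' design text; versions and detection calls are not given in the sources used here. Trimmed means, without the outer 2% at either end, ranged from 150.04 to 150.1, and correlations between arrays of 1 design lay between 0.903 and 0.969. Arrays were rescaled to 1 trimmed mean (Python 3.11.15, numpy 2.4.6, pandas 2.3.3). The steps of flooring, ratio, gene value and call were tested on simulated data.

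A comparison used the probe sets that reached the floor in 1 or both of its conditions. Probe sets whose name ends in _f_at, _r_at, _i_at or _x_at, which can cross-hybridise, were used only for genes without another measured probe set. Symbols came from the platform annotation: 29131 probe sets had 1, 724 had several and 6846 had none, and only those with 1 were used. With 1 array per condition and design there was no test, and array number limits the precision. Promoters came from RefSeq's table for GRCm38.p6, which held 242 of the 307 genes.

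Genes named were those called in any of the 4 main comparisons, the 2 with the largest ratio per class at 2 h of IL-3 and the 1 with the largest with Stat5 siRNA, the 4 highest and 4 lowest in each comparison, and those whose probe sets disagreed by 2-fold or more, 40 in all. Slc1a4, Slc7a1, Slc7a5, Slc7a11, Slc38a2, Slc25a4, Slc25a29, Slc26a6, Slc17a9, Slc25a40, Slc35d3, Slc37a4, Slc9a3r1, Slc39a7 and Slc39a11 were added after their values were seen. The members, classes and lists were chosen with earlier results of these data known.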

Additional observations from a re-analysis of the deposited data

Results flagged for a closer look

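The Stat5 siRNA ratios at 30 min and 2 h of IL-3 had opposite signs in 52 of 125 solute carrier genes. The sign was the same in 58.4% of the 125, against 55.9% of 7699 genes of all kinds. In 5 of the 52 both ratios were larger than the spread between probe sets of 1 gene over all designs (SD 0.23 at 30 min and 0.26 at 2 h). The share of all genes that pass this rule was not computed. For none of the 5 was the difference between the times tested. The log2 ratio of Slc37a3, the lysosomal member of the sugar phosphate exchanger family, was -0.49 at 30 min and 0.78 at 2 h, a difference of 1.27. That of the sialic acid exporter Slc17a5 was -0.35 and 0.62, a difference of 0.968. That of Slc7a14, a lysosomal carrier of basic amino acids, was 0.61 and -0.64, a difference of -1.25. Slc37a4, the glucose 6-phosphate carrier of the endoplasmic reticulum, had 0.32 and -0.64, a difference of -0.957. Slc35d3, on a U74C probe set that can cross-hybridise, had -0.25 and 0.35, a difference of 0.600. On U74C alone the SD at 30 min was 0.34, so its 30 min ratio lay within the spread of that design. Slc9a5 and Slc28a1 also had opposite signs, with differences past 1, but their 30 min ratios of -0.18 and -0.15 lay within that spread.

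By the same rule, with an SD of 0.25 at 30 min and 0.32 at 2 h, 2 genes had IL-3 ratios of opposite sign. Again there was no test, and the share over all genes was not computed. Slc17a9, a vesicular nucleotide carrier, had -0.43 at 30 min, a bound, and 0.39 at 2 h, a difference of 0.825. It is on U74C, where the SD was 0.38 at 30 min and 0.41 at 2 h, so its 2 h ratio lay within the spread of that design. Slc25a40, a mitochondrial carrier, had 0.32 and -0.34, a difference of -0.652.

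A U74B probe set annotated to both Slc22a21 and Slc22a5, carnitine and organic cation carriers, was outside the rule because it has 2 symbols. Its signals were 304, 219, 103, 261 and 198 in the order used above, so that it was under the floor only in control cells at 2 h. The Stat5 siRNA signal at 2 h was at least 1.65-fold higher than control. The other 4 probe sets that share an Slc symbol with another gene were under the floor in all 5 conditions.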

How the results depend on the processing

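Counts are given as genes higher and lower. At 1.5-fold, chosen after seeing the data, they were 2 and 2 for IL-3 at 30 min, 13 and 14 for IL-3 at 2 h, 3 and 1 for Stat5 siRNA at 30 min, 9 and 8 for Stat5 siRNA at 2 h, and for the step from 30 min to 2 h 9 and 12 in control cells and 9 and 11 in Stat5 siRNA cells. With the floor halved they were 3 and 3 for IL-3 at 30 min (1.69% each, against 1.12% and 0.948% of all genes), 6 and 6 at 2 h (3.24% each, against 3.05% and 2.55%), 3 and 4 for Stat5 siRNA at 30 min (1.68% and 2.23%, against 0.729% and 0.857%), 4 and 2 at 2 h (2.15% and 1.08%, against 1.12% and 1.09%), and for the step 7 and 7 in control cells (3.87% each, against 2.39% and 2.41%) and 7 and 2 in Stat5 siRNA cells (3.83% and 1.09%, against 2.00% and 1.82%). With low signals kept as they are they were, in the same order, 3 and 4 (2.14% and 2.86%, against 1.57% and 1.398%), 7 and 6 (5% and 4.29%, against 4.29% and 3.89%), 3 and 5 (2.17% and 3.62%, against 1.13% and 1.30%), 4 and 2 (2.88% and 1.44%, against 1.67% and 1.61%), 7 and 7 (4.93% each, against 3.45% and 3.51%) and 7 and 2 (4.93% and 1.41%, against 3.07% and 2.76%). With the floor doubled, IL-3 at 2 h had 1 higher gene, Slc25a33, of 87 measured (1.15%, against 1.94% of all genes), Stat5 siRNA at 2 h had 0 higher (against 0.252%), and the step had 1 higher and 1 lower in control cells (1.18% each, against 1.59% and 1.22%) and 2 higher in Stat5 siRNA cells (2.44%, against 1.47%). Without U74C, Stat5 siRNA at 2 h had 0 higher, since Slc9a5 is on U74C. Median scaling gave 1 lower gene with Stat5 siRNA at 30 min, Slc39a1, and 3 lower for the step in Stat5 siRNA cells, and the brightest probe set per gene gave 1 lower there; the cause was not tested. Quantile normalization and leaving out probe sets that can cross-hybridise kept each count within 1.5 times. For the named genes, 95 ratios moved by more than the spread between probe sets, 1618 did not, and none that was called changed sign. No paired analysis was possible because each condition had 1 array per design and the labels give no replicate numbers.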

Other observations

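Some carriers with signals near the floor had a pattern that the ratios hold only as small bounds. Slc26a6, a chloride and bicarbonate exchanger, had signals of 108, 114 and 151 in control siRNA cells without IL-3, at 30 min and at 2 h, and of 31.9 and 39.2 in Stat5 siRNA cells at 30 min and 2 h, so that only 1 of 5 reached the floor. Slc17a9, a vesicular nucleotide carrier, stood at 162, 45.2, 212, 160.4 and 225 on U74C, under the floor only in control cells at 30 min. Of the genes named after a carrier, Slc9a3r1, the scaffold protein EBP50, stood at 1044, 1027, 730.3, 937 and 647, low at 2 h in both siRNA arms.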
